A study of Mus musculus with 18 samples.

Results

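The genes described here are 10 members of the ATF4 arm of the integrated stress response: the transcription factors Atf4, Atf5 and Ddit3, the pseudokinase Trib3, asparagine synthetase (Asns), the serine and one-carbon enzymes Psat1, Phgdh, Shmt2 and Mthfd2, and the stress-inducible regulator Sesn2. They were taken by gene symbol from the 56748 genes listed with counts. The name Ddit3 is carried by a second listed gene of 105 bases (ENSMUSG00000116429), so 11 listed genes bear a member's name. That second gene had 0 counts in every library and is not considered further. Of the genes listed, 27701 had a count, 13691 were abundant enough to be tested, and the 10 members were among those tested.

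In the integrated stress response, kinases that sense amino acid shortage, misfolded protein in the endoplasmic reticulum, double-stranded RNA or heme shortage phosphorylate the translation factor eIF2α. General protein synthesis then slows while the mRNA of Atf4 is translated more, and ATF4 protein drives genes for amino acid uptake and synthesis, tRNA charging and, in lasting stress, the pro-apoptotic factor encoded by Ddit3. Much of the control of ATF4 lies in translation and protein stability, which mRNA levels do not show.

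RNA was sequenced from RAW 264.7 cells, an immortalised mouse macrophage line, in 6 conditions with 3 libraries each, described by the study as biological replicates. The agents were tert-butylhydroquinone (TBHQ), a phenolic antioxidant used in food that activates the transcription factor Nrf2, lipopolysaccharide (LPS), a bacterial ligand of Toll-like receptor 4, and poly(I:C) (PIC), a synthetic double-stranded RNA. The study asked how TBHQ given beforehand alters the response of macrophages to bacterial and viral mimics. Control cells were untreated, TBHQ cells received 5 µM TBHQ for 4 h, LPS cells received 0.1 µg/mL LPS for 12 h, and PIC cells received 20 µg/mL PIC for 12 h. In the LPS + TBHQ and PIC + TBHQ groups, 4 h of TBHQ at 5 µM came before 12 h of the same dose of LPS or PIC. The study places control cells in its 12 h schedule, whereas cells given TBHQ alone were taken at 4 h, so in that comparison the effect of TBHQ and that of time in culture cannot be told apart. The paper dissolved TBHQ in DMSO and names no DMSO for the sequenced groups without TBHQ. In every comparison of cells with and without TBHQ, its effect and any effect of the solvent therefore cannot be told apart.

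Libraries held between 14423390 and 18851626 counts. Median totals were 15410984 in control, 16112546 in TBHQ, 14432272 in LPS, 16624933 in LPS + TBHQ, 15502461 in PIC and 16212079 in PIC + TBHQ. At these depths 3 counts correspond to between 0.159 and 0.208 CPM, the unit in which libraries are brought to the same total, and a member's count in a library ran from 475 to 9525, so counting error was small for each of them. Mitochondrial genes took 2.03% to 2.18% of counts in the control libraries and 1.67% to 1.92% in all others, so the control stood apart. All 9 macrophage markers examined had counts in all 18 libraries, led by Lyz2 at 3399 to 4647 FPKM (fragments counted, scaled to gene length and library total and multiplied by a factor of each library given below), with Cd68 at 610.4 to 700.3 FPKM. Others moved with treatment. From control to PIC, mean levels went from 18.4 to 67.6 FPKM for Adgre1 and from 10.6 to 25.5 FPKM for Itgam. Cd14 went from 809.7 to 1658 FPKM and Csf1r from 154 to 86.1 FPKM. From control to TBHQ, Fcgr1 went from 13.98 to 5.77 FPKM, Adgre1 to 12.8 FPKM and Itgam to 7.94 FPKM, while Csf1r rose to 173.9 FPKM. With TBHQ before PIC, Fcgr1 went from 9.64 to 4.52 FPKM, Adgre1 to 46.6 FPKM and Csf1r to 117.1 FPKM. Before LPS, Fcgr1 and Adgre1 also fell, and Csf1r rose from 91.7 to 120.4 FPKM. Itgam did not fall before either stimulus. The part of these markers in the results below was not tested. The T cell marker Cd3e, the epithelial keratins Krt8 and Krt18, the collagen gene Col1a2 and the globin gene Hbb-bs had 0 counts in every library. Markers of other cell types with a few counts were Pdgfra (at most 8, in 13 libraries), Cd79a and Cdh5 (at most 7, each in 16), Pecam1 (at most 5, in 11), Cd4 (at most 4, in 5), Col1a1 (at most 2, in 6), Hba-a1 (at most 2, in 2), Cd3d (at most 1, in 3) and Epcam (at most 1, in 2). The libraries are of bulk RNA, in which fewer cells and less RNA per cell cannot be told apart.

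Several members share sequence or position with other genes. The paper describes the libraries as strand-specific, but the counting setting for strand is not given. Reads of Ddit3 that overlap Mars1 on the opposite strand (at most 3431 counts) are therefore uncertain. So are reads of Atf5 that overlap Nup62 on the opposite strand (at most 3182 counts). Mthfd2 overlaps Gm43890 and Sesn2 overlaps Gm12981 on the same strand, at no more than 60 and 15 counts. Of the 50-base words in Phgdh transcripts, 47.8% also occur in transcripts of other genes, mostly processed pseudogenes, of which the most abundant listed one had at most 476 counts beside 2939 to 4932 for Phgdh. The paper does not state how reads that match several genes were handled, so how far levels of Phgdh are uncertain is not known. The corresponding share was 3.27% for Ddit3, all of it with the second gene of that name, 1.25% for Shmt2 and 0.739% for Psat1.

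Fold changes below are log2 values from edgeR's quasi-likelihood fit over the 18 libraries, with p-values adjusted by the Benjamini-Hochberg method over the 13691 genes tested and called at an adjusted p below 0.05. The error beside a log2 fold change is the SE of the difference between the group means of log2 CPM (n = 3 per group). For these errors CPM was scaled by TMM, edgeR's trimmed mean scaling, and not by library totals alone. All comparisons with the control share its 3 libraries. Levels are the FPKM values that the authors deposited. These equal FPKM by gene length and library total times a factor of 0.943 to 0.951 in control, 0.945 to 0.954 with TBHQ, 1.005 to 1.01 with LPS, 0.992 to 0.999 with LPS + TBHQ, 1.11 to 1.12 with PIC and 1.05 to 1.06 with PIC + TBHQ. Statements on order and overlap therefore depend on that scale. Over the 150 pairs of conditions of the 10 members, the FPKM and the CPM of the libraries gave the same answer on overlap and direction in 119 and a different one in 31, and those that bear on a statement are given with it.

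TBHQ alone split the members, in a comparison where TBHQ and time in culture cannot be told apart. Here and below, rises and falls with TBHQ alone are differences from control and are not assigned to TBHQ. Ddit3, Trib3 and Phgdh fell, while Asns, Atf5, Mthfd2, Psat1 and Shmt2 rose and Atf4 and Sesn2 were not called. That is 5 members higher and 3 lower, beside 14.2% of all genes higher and 14.8% lower. The median log2 fold change was 0.07 over the members and the median of its absolute size was 0.21, against 0.16 for all genes.

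Both stimuli raised most of the members. With LPS, 9 of the 10 members rose, Shmt2 being the exception, beside 24.0% of all genes higher and 24.1% lower. With PIC, 8 members rose and 1, Shmt2, fell, beside 28.6% and 30.1% of all genes. The median log2 fold change of the members was 0.66 with LPS and 0.53 with PIC, beside -0.004 and -0.015 for all genes. The median absolute size was also 0.66 and 0.53 for the members, against 0.25 and 0.33 for all genes. Scaling by library totals in place of TMM (edgeR's trimmed mean scaling) shifted the median of all genes by -0.09 with LPS and by -0.22 with PIC. It lowered the share of called genes that were higher from 49.8% to 35.0% in LPS, and in PIC the share went from 48.7% to 26.4%. The members' median then lay midway between Ddit3 (0.49) and Atf4 (0.66) with LPS. With PIC it lay midway between Trib3 (0.10) and Mthfd2 (0.53). The members called higher with PIC then numbered 5 and those called lower 2, beside 2379 and 6635 of the 13691 genes tested. Ddit3, Trib3 and Psat1 lost their calls and Phgdh turned lower.

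When TBHQ came before a stimulus, the members again divided. Before LPS, Atf4, Ddit3, Sesn2 and Trib3 were lower than with LPS alone and Atf5 and Psat1 were higher, that is 4 lower and 2 higher beside 12.2% and 11.7% of all genes. Before PIC, Atf4 and Sesn2 were lower and Atf5, Phgdh and Shmt2 higher than with PIC alone, 2 and 3 members beside 15.5% and 15.8% of all genes. The members' median log2 fold change was -0.05 in both comparisons, with median absolute sizes of 0.14 and 0.09 beside 0.14 and 0.17 for all genes. By library totals the members in the middle were Asns and Mthfd2 before LPS, both at -0.03. Before PIC they were Trib3 and Asns, both at 0.02, so that median turned positive. Scaling by library totals raised the share of called genes that were higher from 48.9% to 59.5% before LPS and from 50.6% to 70.3% before PIC. It also brought the members called higher before LPS to 4, by adding Phgdh and Shmt2. Those called lower became 3, as Trib3 lost its call, beside 2061 genes higher and 1401 lower of the 13691 tested. Before PIC 4 members were then called higher, Psat1 being added, and 2 lower, beside 3398 and 1436 of all genes.

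Between the stimuli, Sesn2, Atf5 and Atf4 were higher with PIC than with LPS, and Ddit3, Trib3, Phgdh and Shmt2 were lower. The 3 higher and 4 lower members stood beside 14.9% and 12.8% of all genes. Scaling by library totals shifted the median of all genes by -0.13 here and the share of called genes that were higher from 53.7% to 18.4%. By library totals 1 member was higher and 6 were lower, beside 985 and 4373 of the 13691 genes tested. Atf4 and Atf5 lost their calls, and Psat1 (-0.14, edgeR adjusted p = 0.000402) and Mthfd2 (-0.16, edgeR adjusted p = 0.000372) were called lower. Phgdh and Shmt2, both at -0.18 by TMM, were both at -0.31. In the test of whether the effect of TBHQ differed between PIC and LPS, 1 member, Ddit3, was called, beside 0.825% of all genes called in that direction and 1.01% in the other. Of all genes called in that test, 45.0% were in the direction of Ddit3 by TMM and 76.1% by library totals.

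**Figure D1:**
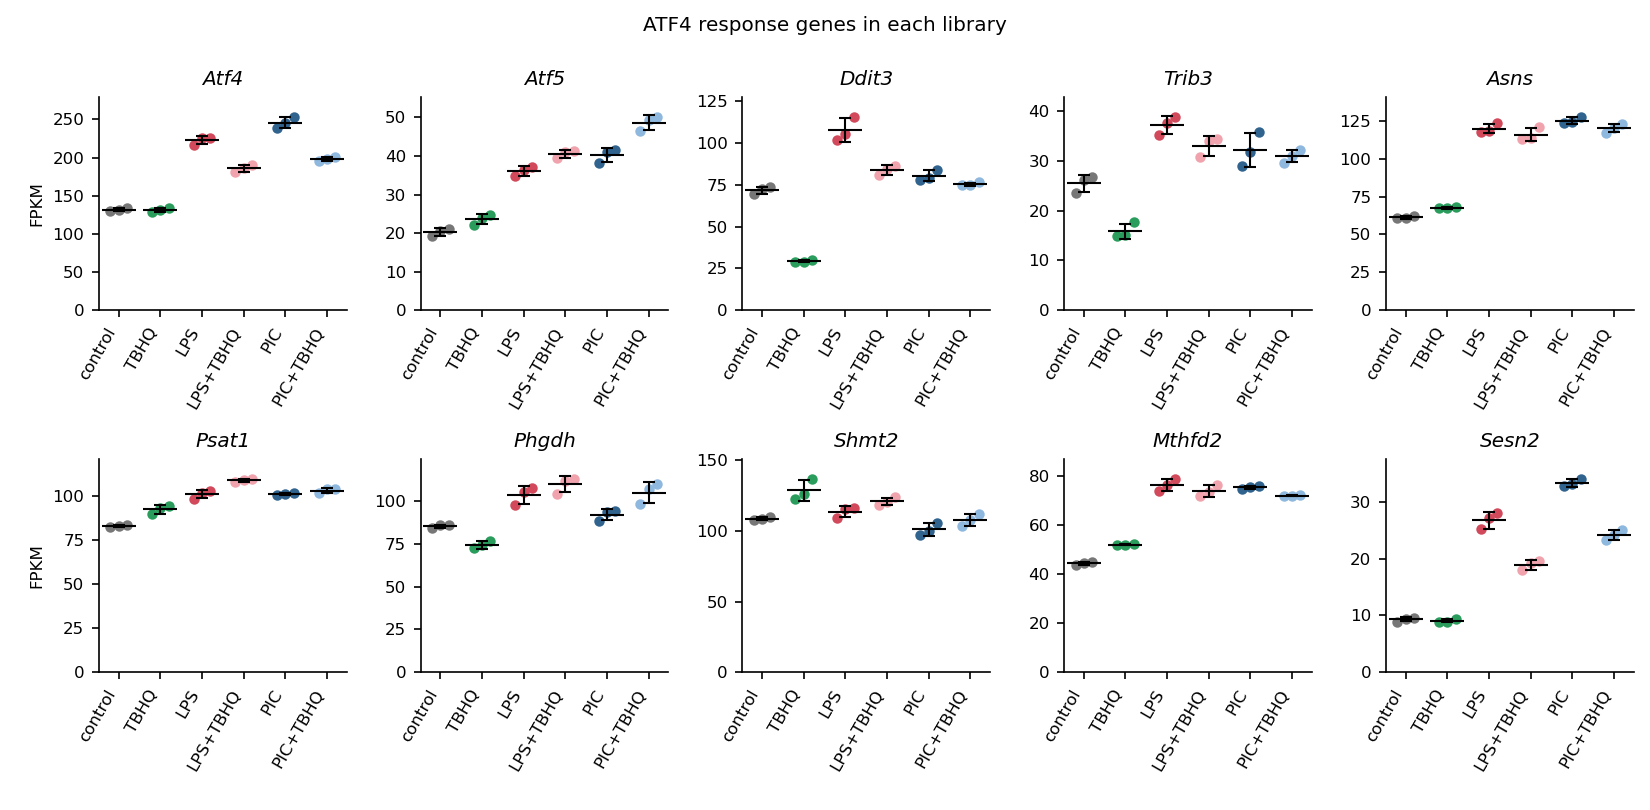
Level of each of the 10 members (FPKM, vertical axis from 0) in the 6 conditions, with 1 point per library set side by side by value, a horizontal mark at the group mean and bars of 1 SD (n = 3). Atf4 and Sesn2 were highest with PIC, while Ddit3 was highest with LPS and lowest with TBHQ alone.

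Atf4 encodes the basic leucine zipper factor that gives the response its name. In the authors' gene table it is ENSMUSG00000042406 on the plus strand of chromosome 15 (80139385 to 80141742). Its level was 129.8, 134 and 132 FPKM in the control libraries and 132, 129 and 134 FPKM after TBHQ alone. With LPS it was 225, 217 and 226 FPKM, and with LPS + TBHQ 187, 181 and 189.7 FPKM. With PIC it was 245, 254 and 239 FPKM, and with PIC + TBHQ 200.1, 195 and 198 FPKM. The control and TBHQ libraries overlapped, every stimulated library lay above them, and each group given TBHQ before a stimulus lay between its stimulus and the control with no overlap. From the top, the order in FPKM was PIC, LPS, PIC + TBHQ, LPS + TBHQ and then control with TBHQ. On CPM, PIC (505 to 536) overlapped LPS (508 to 525), and PIC + TBHQ (437 to 447) overlapped LPS + TBHQ (430.0 to 448).

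The rise of Atf4 was 1.68-fold with LPS (log2 0.75, SE 0.02, edgeR adjusted p = 2.36e-20) and 1.84-fold with PIC (log2 0.88, SE 0.03, edgeR adjusted p = 7.50e-23). TBHQ lowered the stimulated level by a log2 fold change of -0.26 (SE 0.03, edgeR adjusted p = 6.08e-08) before LPS and of -0.30 (SE 0.03, edgeR adjusted p = 2.02e-09) before PIC. The difference between these effects was -0.04 and was not called (edgeR adjusted p = 0.757). TBHQ alone gave -0.00 (edgeR adjusted p = 0.946). The gap between PIC and LPS, 0.13 by TMM scaling (edgeR adjusted p = 0.00160), was 0.00 by library totals (edgeR adjusted p = 0.934), where all genes shifted by -0.13.

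Atf5, a related leucine zipper factor whose mRNA is also translated under eIF2α phosphorylation, followed another course. Its level was 20.6, 19.2 and 21.1 FPKM in control, 22.2, 24.0 and 24.8 FPKM with TBHQ. LPS libraries held 36.4, 34.7 and 37.2 FPKM, and those of LPS + TBHQ 41.1, 39.4 and 41.2 FPKM. PIC libraries held 38.2, 41.1 and 41.7 FPKM, and those of PIC + TBHQ 50.2, 46.5 and 49.3 FPKM. Each group given TBHQ lay above its counterpart without it, and only LPS + TBHQ and PIC, neighbours in the order of levels, overlapped. On CPM these were apart, and PIC overlapped LPS.

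For Atf5, LPS gave a 1.77-fold rise (log2 0.82, SE 0.05, edgeR adjusted p = 2.36e-15) and PIC a 1.97-fold rise (log2 0.98, SE 0.05, edgeR adjusted p = 7.43e-18). TBHQ added 0.22 on the log2 scale in unstimulated cells (SE 0.06, edgeR adjusted p = 0.00249), 0.17 before LPS (SE 0.03, edgeR adjusted p = 0.0125) and 0.28 before PIC (SE 0.05, edgeR adjusted p = 2.36e-05). The call before LPS rested on LPS replicate 2, without which the value was 0.14 (edgeR adjusted p = 0.0701). Atf5 was higher with PIC than with LPS by 0.15 (edgeR adjusted p = 0.0232). That call was lost without LPS replicate 2 (0.13, edgeR adjusted p = 0.0926), without PIC replicate 2 (0.14, edgeR adjusted p = 0.0686) or without PIC replicate 3 (0.13, edgeR adjusted p = 0.0998), and by library totals the value was 0.02 (edgeR adjusted p = 0.766).

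Ddit3 encodes CHOP, a factor that forms dimers with other leucine zipper proteins and is known for promoting cell death in lasting stress. It is ENSMUSG00000025408 on the plus strand of chromosome 10 (127126643 to 127132157). Control libraries held 72.4, 69.4 and 73.3 FPKM and TBHQ libraries 28.8, 29.1 and 30.1 FPKM. LPS libraries held 116, 102 and 105 FPKM, and LPS + TBHQ libraries 86.1, 84.2 and 80.5 FPKM. PIC libraries held 79.1, 84.0 and 77.7 FPKM, and PIC + TBHQ libraries 74.8, 76.4 and 74.6 FPKM. All TBHQ libraries lay well under the control, all LPS libraries lay above every other library, and LPS + TBHQ overlapped PIC. On CPM, LPS + TBHQ lay above PIC, PIC overlapped control and PIC + TBHQ, and PIC + TBHQ lay below control.

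With TBHQ alone Ddit3 was 2.45-fold lower than in control (log2 -1.29, SE 0.03, edgeR adjusted p = 2.04e-21), the largest difference of a member in that comparison. LPS raised it 1.49-fold (log2 0.58, SE 0.06, edgeR adjusted p = 1.20e-13). With PIC the value was 0.15 (SE 0.04, edgeR adjusted p = 0.00521) by TMM scaling but -0.07 by library totals (edgeR adjusted p = 0.152), where the median of all genes shifted by -0.22. Ddit3 was lower with PIC than with LPS by a log2 fold change of -0.43 (SE 0.06, edgeR adjusted p = 7.88e-10), or -0.56 by library totals.

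TBHQ before LPS lowered Ddit3 by a log2 fold change of -0.37 (SE 0.06, edgeR adjusted p = 2.40e-08). Before PIC the value was -0.08 (SE 0.04), which was not called (edgeR adjusted p = 0.172) although the 3 libraries of each group did not overlap in FPKM. By library totals it was -0.01 (edgeR adjusted p = 0.867). The effect of TBHQ differed between the stimuli by 0.29 (SE 0.07, edgeR adjusted p = 0.00702). Over the alternatives run, this difference lay between 0.23 and 0.33, with adjusted p-values from 0.00156 to 0.0462.

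Trib3 encodes a pseudokinase, induced by ATF4 and CHOP, that binds ATF4 and restrains its activity. Levels were 23.6, 26.8 and 26.1 FPKM in control and 14.9, 15.1 and 17.6 FPKM with TBHQ. They were 38.9, 35.2 and 37.5 FPKM with LPS and 33.9, 30.7 and 34.3 FPKM with LPS + TBHQ. With PIC they were 31.7, 28.9 and 35.8 FPKM, and with PIC + TBHQ 29.6, 31.0 and 32.1 FPKM. TBHQ libraries were lowest and apart from all others. The LPS group had the highest mean, but 1 PIC library reached into its range, and LPS + TBHQ, PIC and PIC + TBHQ overlapped one another. On CPM, LPS lay above PIC, LPS + TBHQ lay above PIC + TBHQ, and both PIC groups overlapped control.

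Trib3 was 1.61-fold lower with TBHQ alone than in control (log2 -0.69, SE 0.09, edgeR adjusted p = 1.60e-09). It rose 1.45-fold with LPS (log2 0.54, SE 0.07, edgeR adjusted p = 1.50e-08). With PIC the log2 fold change was 0.32 (SE 0.10, edgeR adjusted p = 9.25e-05), and by library totals 0.10 (edgeR adjusted p = 0.182). The lower level after TBHQ before LPS (log2 -0.18, SE 0.07, edgeR adjusted p = 0.0423) was close to the threshold. It lost its call in DESeq2 (adjusted p = 0.0855) and by library totals (edgeR adjusted p = 0.0847). It also lost it without LPS replicate 1 (-0.15, edgeR adjusted p = 0.175), LPS replicate 3 (-0.17, edgeR adjusted p = 0.0932), LPS + TBHQ replicate 1 (-0.19, edgeR adjusted p = 0.0565) or LPS + TBHQ replicate 2 (-0.13, edgeR adjusted p = 0.233). Before PIC the value was -0.05 by TMM and 0.02 by library totals, and was not called by either (edgeR adjusted p = 0.627 by TMM). Trib3 was lower with PIC than with LPS by -0.22 (edgeR adjusted p = 0.0108) although the libraries overlapped in FPKM, and without LPS replicate 1 (-0.19, edgeR adjusted p = 0.0656) or PIC replicate 2 (-0.14, edgeR adjusted p = 0.132) this was not called. By library totals it was -0.35 (edgeR adjusted p = 6.37e-05).

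Asns encodes the enzyme that makes asparagine from aspartate and glutamine and is a much used reporter of ATF4 activity. It had 60.8, 60.9 and 62.3 FPKM in control and 67.3, 67.4 and 68.3 FPKM with TBHQ. The LPS libraries held 123, 118 and 118 FPKM and the LPS + TBHQ libraries 113, 113 and 121 FPKM. The PIC libraries held 123, 128 and 124 FPKM and the PIC + TBHQ libraries 120.5, 123 and 117 FPKM. Stimulated libraries lay far above the others, TBHQ libraries lay just above control, and the LPS groups with and without TBHQ overlapped, while PIC libraries lay above those of PIC + TBHQ by a narrow margin. On CPM the PIC groups overlapped each other, and LPS lay above PIC.

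Asns rose 1.95-fold with LPS (log2 0.96, SE 0.02, edgeR adjusted p = 1.55e-22) and 2.02-fold with PIC (log2 1.01, SE 0.02, edgeR adjusted p = 1.29e-23). With TBHQ alone it was higher than in control by 0.14 (SE 0.01, edgeR adjusted p = 0.00276). Where TBHQ came first, neither stimulated level was called: the values were -0.05 before LPS (edgeR adjusted p = 0.319) and -0.05 before PIC (edgeR adjusted p = 0.313), the latter 0.02 by library totals.

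Mthfd2 encodes a mitochondrial folate enzyme of one-carbon metabolism. Its level was 43.8, 44.5 and 45.0 FPKM in control, 51.8, 52.0 and 52.2 FPKM with TBHQ, 76.4, 73.7 and 78.8 FPKM with LPS and 74.8, 75.4 and 76.0 FPKM with PIC. With TBHQ first it was 73.3, 71.7 and 76.4 FPKM in LPS and 71.9, 71.6 and 72.2 FPKM in PIC. The stimulated groups formed 1 cluster in which each overlapped its neighbour, above TBHQ and then control. On CPM both LPS groups lay above both PIC groups. It rose 1.71-fold with LPS (log2 0.77, SE 0.03, edgeR adjusted p = 8.90e-20), 1.68-fold with PIC (log2 0.75, SE 0.01, edgeR adjusted p = 1.11e-19) and by 0.22 on the log2 scale with TBHQ alone (SE 0.01, edgeR adjusted p = 6.47e-06). TBHQ before LPS gave -0.05 and before PIC -0.06, neither called (edgeR adjusted p = 0.326 and 0.215), and by library totals the second was 0.01.

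Psat1, the aminotransferase of serine synthesis, covered a narrower range. Its mean level was 82.7 ± 0.494 FPKM in control and 92.1 ± 2.57 FPKM after TBHQ (SD, n = 3). LPS libraries averaged 101 ± 2.27 FPKM without and 109 ± 0.890 FPKM after TBHQ, and PIC libraries 101 ± 0.578 and 103 ± 1.45 FPKM. Control libraries lay lowest and LPS + TBHQ libraries highest, each without overlap, also on CPM. PIC lay above TBHQ in FPKM and below it on CPM. LPS raised Psat1 by 0.28 (SE 0.02, edgeR adjusted p = 2.13e-09), PIC by 0.27 (SE 0.01, edgeR adjusted p = 2.57e-09) and TBHQ by 0.15 (SE 0.02, edgeR adjusted p = 0.000209). By library totals the PIC value was 0.05 and no longer called (edgeR adjusted p = 0.145). TBHQ before LPS added 0.11 (SE 0.02, edgeR adjusted p = 0.00810), while before PIC the value was 0.04 (edgeR adjusted p = 0.343), or 0.11 by library totals (edgeR adjusted p = 0.00402).

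Phgdh encodes the first enzyme of serine synthesis, which draws on the glycolytic intermediate 3-phosphoglycerate. Its libraries held 85.8, 85.7 and 84.3 FPKM in control, 74.3, 72.3 and 76.5 FPKM with TBHQ, 107, 97.8 and 105 FPKM with LPS and 88.3, 94.0 and 93.8 FPKM with PIC. With TBHQ first they held 112, 104 and 113 FPKM in LPS and 109.8, 98.1 and 107 FPKM in PIC. The 3 TBHQ libraries were the lowest of the 18, and LPS, LPS + TBHQ and PIC + TBHQ overlapped at the top. On CPM, TBHQ overlapped PIC, and LPS + TBHQ lay above PIC + TBHQ. Phgdh was lower with TBHQ alone than in control, with a log2 fold change of -0.20 (SE 0.02, edgeR adjusted p = 0.000428). LPS raised it by 0.27 (SE 0.04, edgeR adjusted p = 1.74e-06), and TBHQ before PIC raised it by 0.20 (SE 0.06, edgeR adjusted p = 0.000326).

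For Phgdh with PIC alone, the log2 fold change was 0.09 (SE 0.03) and missed the threshold (edgeR adjusted p = 0.0609) although the libraries lay above control in FPKM. On CPM they lay below it. It was called higher by DESeq2 (0.11, adjusted p = 0.0344), with DESeq2's style of size factors in edgeR (RLE, 0.11, edgeR adjusted p = 0.0247) and without PIC replicate 1 (0.14, edgeR adjusted p = 0.0136). It was also called higher among genes with a mean of at least 50 counts (0.12, edgeR adjusted p = 0.0151), with only the conditions compared (0.10, edgeR adjusted p = 0.0279) and with a replicate block (0.09, edgeR adjusted p = 0.0438). It was called lower by library totals (-0.12, edgeR adjusted p = 0.00868), where all genes shifted by -0.22.

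Shmt2, the mitochondrial enzyme that splits serine into glycine and a one-carbon unit, had an order of levels of its own. Libraries held 110.1, 108 and 108 FPKM in control, 123, 126 and 137 FPKM with TBHQ, 116, 109 and 116 FPKM with LPS and 97.2, 100.4 and 106 FPKM with PIC. With TBHQ first they held 121, 118 and 124 FPKM in LPS and 112, 104 and 108 FPKM in PIC. TBHQ libraries stood highest, overlapping only LPS + TBHQ, and PIC libraries lowest, overlapping only PIC + TBHQ. On CPM neither of these overlapped.

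Shmt2 was higher with TBHQ alone than in control by 0.24 (SE 0.05, edgeR adjusted p = 8.86e-06). With LPS the value was 0.06 and not called (edgeR adjusted p = 0.239), and it was -0.03 by library totals. PIC lowered Shmt2 by a log2 fold change of -0.12 (SE 0.04, edgeR adjusted p = 0.00905), a call lost without PIC replicate 1 (-0.08, edgeR adjusted p = 0.139) or PIC replicate 2 (-0.10, edgeR adjusted p = 0.0586). By library totals the value was -0.34 (edgeR adjusted p = 1.26e-09), where all genes shifted by -0.22. The 0.10 by which TBHQ raised it before PIC (SE 0.05, edgeR adjusted p = 0.0463) came from groups that overlapped in FPKM. It was not called by DESeq2 (adjusted p = 0.0941), with RLE factors (edgeR adjusted p = 0.0971), without a filter (edgeR adjusted p = 0.0520), among genes with a mean of at least 50 counts (edgeR adjusted p = 0.0876) or with only the conditions compared (edgeR adjusted p = 0.0626). Nor was it called without PIC replicate 1 (0.06, edgeR adjusted p = 0.352), without PIC replicate 2 (0.08, edgeR adjusted p = 0.186), without PIC + TBHQ replicate 1 (0.07, edgeR adjusted p = 0.265) or without PIC + TBHQ replicate 3 (0.10, edgeR adjusted p = 0.111). By library totals it was 0.17 (edgeR adjusted p = 0.000556), where all genes shifted by 0.07.

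Sesn2 encodes sestrin 2, a stress-inducible protein that senses leucine and restrains the growth kinase complex mTORC1. It is ENSMUSG00000028893 on the minus strand of chromosome 4 (132219343 to 132237812). In control its level was the lowest of the members, at 8.90, 9.38 and 9.60 FPKM, and with TBHQ it was 8.86, 9.40 and 8.91 FPKM. With LPS it was 27.9, 25.1 and 27.1 FPKM, and with LPS + TBHQ 19.1, 17.98 and 19.6 FPKM. With PIC it was 34.0, 32.7 and 33.2 FPKM, and with PIC + TBHQ 25.0, 23.3 and 24.2 FPKM. The order of groups was that of Atf4, with every neighbouring pair apart except control and TBHQ, also on CPM.

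Sesn2 had the largest rise of a member with either stimulus, 2.86-fold with LPS (log2 1.51, SE 0.05, edgeR adjusted p = 3.44e-23) and 3.54-fold with PIC (log2 1.82, SE 0.04, edgeR adjusted p = 3.50e-26). It was higher with PIC than with LPS by 0.31 (SE 0.05, edgeR adjusted p = 3.18e-06), which by library totals was 0.18 (edgeR adjusted p = 0.00241). TBHQ lowered it before LPS by a log2 fold change of -0.50 (SE 0.06, edgeR adjusted p = 3.56e-10) and before PIC by -0.45 (SE 0.04, edgeR adjusted p = 1.39e-09), and the difference between these effects, 0.05, was not called (edgeR adjusted p = 0.832). TBHQ alone gave -0.04 (edgeR adjusted p = 0.659).

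**Figure D2:**
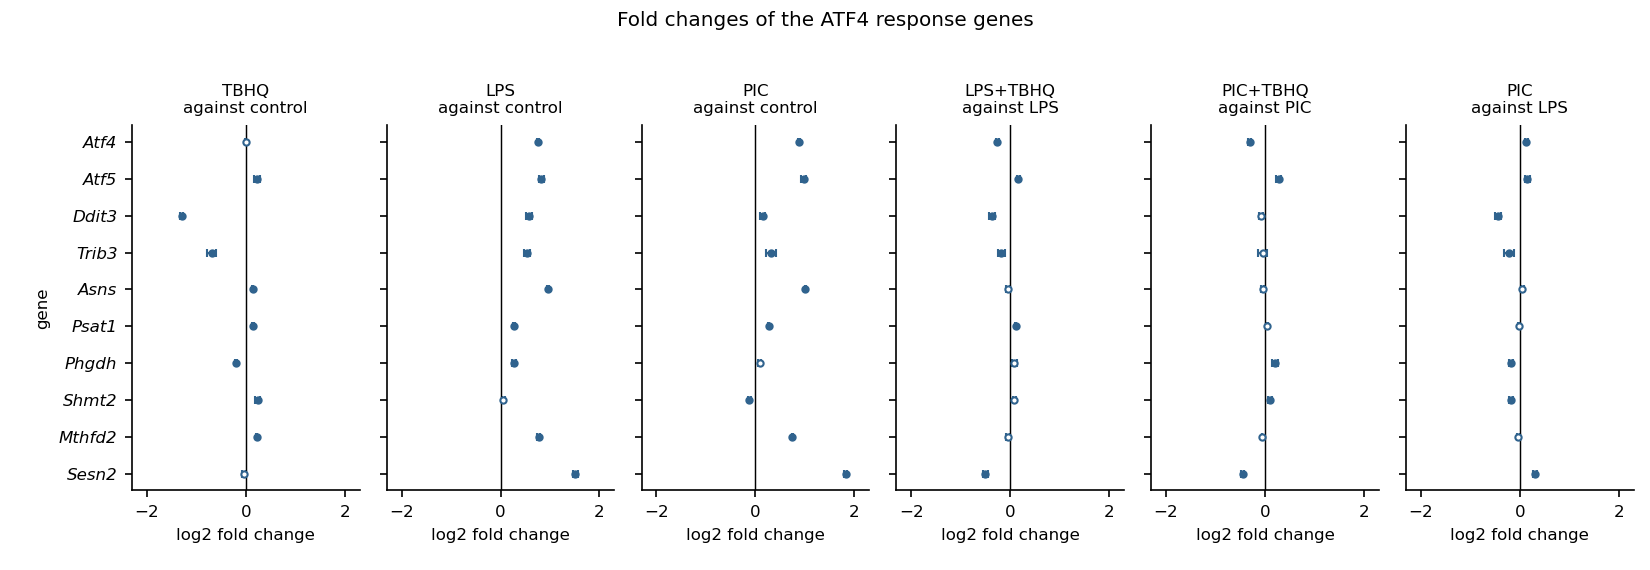
Log2 fold change of each member (horizontal axis) in each comparison, with points at the edgeR estimate. Bars are 1 SE of the difference between group means of log2 CPM with TMM scaling (3 libraries a group), hidden where narrower than the point. Filled points passed an adjusted p of 0.05, and open points did not.

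The members differed in how closely they moved together over the 18 libraries, which share 6 conditions and are therefore not 18 independent points. All correlations here were taken on log2 CPM scaled by TMM, and none was taken by library totals alone. Pearson's r was 0.993 between Atf4 and Sesn2, 0.985 between Asns and Mthfd2 and 0.955 between Ddit3 and Trib3. It was 0.956 between Asns and Sesn2 and 0.945 between Atf4 and Asns. Ddit3 had lower values with Atf4 (0.694), Atf5 (0.527) and Psat1 (0.388). Shmt2 ran against several members, with r of -0.568 to Ddit3, -0.564 to Sesn2 and -0.543 to Atf4. Among 10441 genes compared, those most like Atf4 over n = 18 libraries were Glrx (r = 0.992), Il1rn and Ccl7 (both 0.991), Il1b (0.990) and Nckap1 (0.988). Those most like the mean of the scaled members were Esyt1 (0.987), Cdk2ap2 (0.984), Gars (0.983), Chac1 (0.982) and Nfe2l1 (0.981).

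Lists of related genes follow, with counts by TMM unless library totals are named. Of all genes tested, 14.2% were higher and 14.8% lower with TBHQ, 24.0% and 24.1% with LPS, and 28.6% and 30.1% with PIC. With TBHQ first, the shares were 11.7% and 12.2% in LPS and 15.8% and 15.5% in PIC. A list whose counts lie near these shares is not set apart from all genes. Library totals move these counts too, and those by library totals are given where they differ most in the comparisons described.

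The 4 kinases that phosphorylate eIF2α were measured beside the members. Eif2ak2, the kinase PKR that binds double-stranded RNA, had 28.2 ± 0.156 FPKM in control, 22.8 ± 0.516 with TBHQ, 31.8 ± 1.56 with LPS and 35.2 ± 1.44 with PIC (SD, n = 3). With TBHQ first it had 23.0 ± 0.344 FPKM in LPS and 26.2 ± 0.991 in PIC. TBHQ lowered it alone (log2 -0.31, edgeR adjusted p = 3.78e-07), before LPS (-0.47, edgeR adjusted p = 3.61e-11) and before PIC (-0.42, edgeR adjusted p = 4.55e-10), while LPS and PIC raised it by 0.17 and 0.30. By library totals the last values were 0.08 and 0.08 and neither was called (edgeR adjusted p = 0.118 and 0.0740). Eif2ak3, the endoplasmic reticulum kinase PERK, fell with PIC (-0.27) and was higher when TBHQ preceded PIC (0.25). Eif2ak4, the amino acid sensor GCN2, fell with LPS (-0.19) and PIC (-0.36), and Eif2ak1, the heme-regulated kinase, was called in no comparison by TMM, with values from -0.03 to 0.08. By library totals it was called lower with LPS (-0.12, edgeR adjusted p = 0.0395) and PIC (-0.23, edgeR adjusted p = 5.24e-05), and higher when TBHQ preceded PIC (0.15, edgeR adjusted p = 0.0138). Eif2ak4 was then called higher too when TBHQ preceded PIC (0.22, edgeR adjusted p = 0.0221). With PIC alone, Eif2ak3 was at -0.49 and Eif2ak4 at -0.58 by library totals.

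Of 10 subunits of eIF2, its exchange factor eIF2B and the eIF2α phosphatase, 4 rose and 1 fell with PIC, 3 rose and 1 fell with LPS, and 2 rose and 2 fell with TBHQ alone. By library totals 2 were higher and 6 lower with PIC, and 3 higher and 5 lower with LPS. Ppp1r15a (GADD34), the inducible phosphatase subunit that reverses the signal and is itself a target of ATF4, had 38.0 ± 1.63 FPKM in control, 21.9 ± 1.00 with TBHQ, 60.7 ± 3.63 with LPS and 81.2 ± 2.06 with PIC (SD, n = 3). It fell with TBHQ (log2 -0.80, edgeR adjusted p = 7.09e-16) and rose with LPS (0.67, edgeR adjusted p = 2.20e-15) and PIC (1.08, edgeR adjusted p = 7.15e-22). TBHQ before LPS and before PIC lowered it by log2 fold changes of -0.50 and -0.57. The constitutive subunit Ppp1r15b rose with TBHQ (0.25) and PIC (0.24) and was lower when TBHQ preceded PIC (-0.13). By library totals the PIC value was 0.03 (edgeR adjusted p = 0.624) and that of TBHQ before PIC -0.06 (edgeR adjusted p = 0.295), neither called. In this list TBHQ before LPS left 1 gene higher and 2 lower, and before PIC 1 higher and 4 lower.

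Of 7 tested leucine zipper genes related to the transcription factors above (Batf3 was too low to test), 6 rose and 1 fell with each stimulus, with a median log2 fold change of 0.73 in LPS and 0.60 in PIC. By library totals 5 rose and 1 fell with PIC, and the medians were 0.64 and 0.38. TBHQ alone raised 3 and lowered 4, TBHQ before LPS lowered 3, and TBHQ before PIC raised 3 and lowered 2. Atf3, a stress-induced repressor, had 89.9 ± 3.28 FPKM in control, 61.9 ± 2.39 with TBHQ, 216 ± 12.7 with LPS and 312 ± 13.9 with PIC (SD, n = 3). Its log2 fold change was -0.54 with TBHQ, 1.26 with LPS and 1.78 with PIC. TBHQ first lowered it by log2 fold changes of -0.58 in LPS and -0.79 in PIC, and these differed (-0.21, edgeR adjusted p = 0.0423), a call lost by library totals (-0.16, edgeR adjusted p = 0.110). The Nrf2 gene itself, Nfe2l2, fell with TBHQ (-0.14), LPS (-0.31) and PIC (-0.16). By library totals the values with LPS and PIC were -0.40 and -0.38.

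Among other ATF4 target genes, 13 of 16 were tested (Vldlr, Fgf21 and Cbs were too low). LPS raised 10 and lowered 1, and PIC raised 11 and lowered 1, with medians of 0.62 and 0.65. By library totals PIC raised 9 and lowered 1, and the medians were 0.53 and 0.44. TBHQ alone raised 2 and lowered 6. Ddit4, a stress-induced inhibitor of mTORC1, had 3.01 ± 0.0946 FPKM in control, 3.38 ± 0.628 with TBHQ, 20.6 ± 1.48 with LPS and 24.5 ± 0.512 with PIC (SD, n = 3). It rose by 2.77 with LPS and 3.01 with PIC, and TBHQ first lowered it by log2 fold changes of -1.38 and -1.02. Before LPS, TBHQ lowered 6 of the 13, and before PIC it lowered 7 and raised 4, or 5 and 4 by library totals. Nupr1, a stress-induced chromatin protein, fell by 0.91 on the log2 scale with TBHQ alone, and Chac1, a glutathione-degrading enzyme, rose by 1.38 with LPS.

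Most amino acid transporters rose with each agent. Of 9 tested (Slc7a3 was too low), 6 rose and 1 fell with TBHQ, 7 rose with LPS, and 7 rose and 1 fell with PIC. By library totals 6 rose and 2 fell with LPS, and 5 rose and 3 fell with PIC. Slc7a11, the cystine importer under both ATF4 and Nrf2, had 9.50 ± 0.233 FPKM in control, 33.2 ± 1.85 with TBHQ, 40.9 ± 1.37 with LPS and 54.9 ± 1.83 with PIC (SD, n = 3). Its log2 fold changes were 1.80, 2.10 and 2.51, and TBHQ first added 0.72 in LPS and 0.41 in PIC, which differed by -0.31 (edgeR adjusted p = 0.000197). TBHQ before LPS raised 2 transporters and before PIC 4, or 4 and 6 by library totals.

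Of 12 further serine and one-carbon genes, 5 rose and 5 fell with LPS, 4 rose and 5 fell with PIC, and 1 rose and 2 fell with TBHQ alone. By library totals 2 rose and 5 fell with PIC. Aldh1l2, a mitochondrial folate dehydrogenase, fell with TBHQ (log2 -0.98) and rose with LPS (0.63) and PIC (0.31). Psph, which completes serine synthesis, rose by 0.61 with LPS and 0.45 with PIC. By library totals the 2 genes called higher with PIC were Mthfd1l (0.39) and Psph (0.24), so Aldh1l2 lost that call. TBHQ before LPS left 4 of the 12 higher and 1 lower, and before PIC 5 higher and 2 lower. Aminoacyl-tRNA synthetases, with the tRNA exporter Xpot, were raised by LPS in 11 of 13 cases and by PIC in 10, with medians of 0.36 and 0.39. By library totals LPS raised 11 and PIC raised 8 and lowered 3, with medians of 0.28 and 0.17. TBHQ alone raised 3 and lowered 2, TBHQ before LPS lowered 2, and TBHQ before PIC raised 1 and lowered 1, or 6 and 0 by library totals.

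Chaperones of the endoplasmic reticulum and related genes, Xbp1 and Edem1 among them, fell with TBHQ alone in 13 of 14 cases. The median log2 fold change was -0.35. LPS raised 3 and lowered 9, and PIC raised 2 and lowered 9. By library totals LPS raised 2 and lowered 10, and PIC raised 1 and lowered 12. Hspa5, the major chaperone BiP, had 815 ± 2.27 FPKM in control and 498 ± 10.2 with TBHQ (SD, n = 3), a log2 fold change of -0.71 (edgeR adjusted p = 1.36e-21), and Dnajb9 fell with TBHQ by 0.95 on the log2 scale. When TBHQ preceded LPS, 5 of the list were higher and 2 lower, and before PIC 9 were higher and 2 lower, or 7 and 2 and then 10 and 2 by library totals. Of 6 mitochondrial stress genes tested, 1 rose and 2 fell with TBHQ, 2 rose and 1 fell with each stimulus, 2 fell when TBHQ preceded LPS, and 3 rose and 2 fell when it preceded PIC. By library totals 0 rose and 3 fell with PIC. Hspe1, a mitochondrial chaperonin, fell by 0.31 on the log2 scale with TBHQ.

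Genes of the agents' own pathways were read too. These lists were chosen with earlier results of these data known, so they are no independent check on the labels. All 10 Nrf2 targets rose with TBHQ, with a median of 1.61, and 9 rose with LPS and 7 with PIC. By library totals 8 rose with LPS, and 6 rose and 1 fell with PIC. TBHQ first raised 9 and lowered 1 in each stimulus, the lower being Hmox1 (-0.30 in LPS and -0.16 in PIC), which had itself risen by 2.09 with TBHQ. The log2 fold change of Nqo1 with TBHQ, 3.24, starts from a control level of only 0.104 ± 0.0773 FPKM (SD, n = 3). All 6 inflammatory response genes rose with both stimuli, with medians of 2.20 in LPS and 3.27 in PIC, and were lower when TBHQ came first, with medians of -1.01 and -1.18. TBHQ alone raised 3 of these 6 and lowered the other 3.

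Promoter sequences of the members were searched for binding motifs, because ATF4 is known to bind C/EBP-ATF response elements and Nrf2 antioxidant response elements. RefSeq windows on GRCm38.p6, reaching from 250 bases before to 50 bases after a transcription start, were matched by symbol for all 10 members (12 windows). Both strands were read. The core TGATGNAA of the C/EBP-ATF element occurred in 2 of the members' 12 windows, those of Asns and Trib3. It occurred in 3.97% of the 32851 windows of all genes. The antioxidant response core TGACNNNGC occurred in 3 of the members' 12 windows, those of Asns, Phgdh and Sesn2, and in 12.4% of all windows. The cyclic AMP element TGACGTCA, its part TGACGT and the E-box CACGTG were in none of the members' windows and in 1.79%, 7.51% and 7.15% of all windows. A match describes letters in a window and not a bound site.

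The stretches around the matches are shown 5′ to 3′ on the minus strand, where all 4 genes lie, with the match in capitals. They are the C/EBP-ATF core in Asns (chr6:7693210-7693292) and in Trib3 (chr2:152344028-152344057), where it reads on the opposite strand, and the antioxidant core in Asns (chr6:7693313-7693441) and in Phgdh (chr3:98339970-98340082), both on the opposite strand, and in Sesn2 (chr4:132510457-132510552). The C/EBP-ATF match of Asns begins at 23 bases before the start and its antioxidant match 172 bases before it. That of Trib3 begins 15 bases after it, that of Phgdh 53 bases before it and that of Sesn2 36 bases before it. These positions are on GRCm38 and cannot be set beside the gene positions given above, which follow the authors' files, where 50588 of 52073 shared genes have another start than in the GRCm38 annotation.
Asns, C/EBP-ATF core: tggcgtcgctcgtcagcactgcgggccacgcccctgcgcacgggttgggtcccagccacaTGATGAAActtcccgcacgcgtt
Trib3: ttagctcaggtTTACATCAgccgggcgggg
Asns, antioxidant core: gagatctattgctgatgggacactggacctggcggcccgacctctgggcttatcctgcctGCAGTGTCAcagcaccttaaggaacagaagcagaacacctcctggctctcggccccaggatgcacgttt
Phgdh: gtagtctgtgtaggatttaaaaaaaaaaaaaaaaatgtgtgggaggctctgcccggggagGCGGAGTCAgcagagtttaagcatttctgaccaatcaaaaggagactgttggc
Sesn2: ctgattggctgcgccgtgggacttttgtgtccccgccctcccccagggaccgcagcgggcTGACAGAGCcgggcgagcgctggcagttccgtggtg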

How the data were processed

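Poly(A) RNA was sequenced from 18 libraries. The authors deposited raw counts of fragments per gene, and the submitters' processing notes name HISAT2 2.0.5, StringTie 1.3.3b and featureCounts 1.5.0-p3. The authors also deposited FPKM, which equalled FPKM recomputed from counts and gene length times a constant per library (0.943 to 1.12). The labels name both GRCm38 and mm39, so gene positions are given as in the authors' files.

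Counts were tested with edgeR 4.0.16 in R 4.3.3: filterByExpr, TMM scaling and the quasi-likelihood test over all libraries with 1 coefficient per condition, Benjamini-Hochberg adjustment and a threshold of 0.05. The common dispersion was 0.00192. Tables were made in Python 3.11.15 with pandas 2.3.3 and numpy 2.4.6, and drawn with matplotlib 3.10.9. The edgeR steps were tested on simulated data. Floors and counting error concern counting only.

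All members are named. From each list of related genes (eIF2α kinases; eIF2, eIF2B and phosphatase subunits; leucine zipper factors; amino acid transporters; serine and one-carbon genes; other ATF4 targets; tRNA synthetases; endoplasmic reticulum chaperones; Nrf2 targets; inflammatory genes; mitochondrial stress genes), the 2 highest and 2 lowest called genes per comparison with a mean of at least 10 counts could be named, and any kinase or phosphatase subunit. Likeness was measured among tested genes with a mean of at least 50 counts. Members and lists were chosen with earlier results of these data known. Alternatives were DESeq2 1.42.0, RLE factors, library totals, no filter, a mean of at least 50 counts, only the conditions compared, a replicate block, the study's threshold (adjusted p below 0.01 and absolute log2 fold change above 2) and leaving out each library.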

Additional observations from a re-analysis of the deposited data

Results flagged for a closer look

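The effect of TBHQ on Ddit3 differed between the stimuli by the test of the difference itself. The log2 fold change of TBHQ before PIC less that before LPS was 0.29 (SE 0.07, edgeR adjusted p = 0.00702), from -0.08 before PIC and -0.37 before LPS. Ddit3 stood at 108 ± 7.17 FPKM with LPS and 83.6 ± 2.88 with LPS + TBHQ, and at 80.3 ± 3.28 with PIC and 75.3 ± 0.987 with PIC + TBHQ (SD, n = 3). LPS replicate 1 was the highest of the LPS libraries at 116 FPKM.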

How the results depend on the processing

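Of 70 log2 fold changes of members, 64 kept both sign and side of the threshold under DESeq2 and 64 with RLE factors, 66 with a mean of at least 50 counts, 67 with only the conditions compared and 67 without a filter, 69 with a replicate block and 51 by library totals. Leaving out a library kept 444 of 480. The rest include uncalled values whose sign turned, 7 by library totals and 19 on leaving out a library. Of 2288 counts of called list genes under the alternatives, 279 moved more than 1.5-fold or to or from 0. With library totals, PIC against control had 5 members higher and 2 lower, with Ddit3 at -0.072 (not called) and Phgdh at -0.12 (called), LPS + TBHQ against LPS had 4 higher, and PIC against LPS had 1 higher and 6 lower, where Hspa9 (-0.050), Pdia6 (-0.021) and Sars (-0.040) lost their calls and changed sign. The cause was not tested.

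At the study's threshold 0 members were called in any comparison by edgeR or DESeq2, or at an unadjusted p below 0.05, since no member had an absolute log2 fold change above 2. Genes called by edgeR and DESeq2 were 26 and 20 for TBHQ, 224 and 227 for LPS, 489 and 514 for PIC, 53 and 51 for TBHQ before LPS, 41 and 34 before PIC, 42 and 23 for PIC against LPS and 0 and 0 for the difference of TBHQ effects (26 by edgeR at an unadjusted p below 0.05 and that fold). For that difference edgeR called 251 genes at an adjusted p of 0.05 and 380 without a filter.

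Leaving out libraries, members called lower with PIC numbered 0 to 1 (0 without PIC replicate 1 or 2), members called higher before LPS 1 to 2 (1 without LPS replicate 2), and genes called in the difference of TBHQ effects 160 to 354. The replicate numbers did not pair libraries (r from -0.0444 to 0.0645), and a replicate block gave 9 members higher with PIC, Phgdh being added (0.09, edgeR adjusted p = 0.0438), with 8063 genes called against 8037, and changed no other member's call. How far 3 libraries a group limit the calling of small changes, such as those of Shmt2 and Trib3 near the threshold, was not tested.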
